A study of Mus musculus with 2 samples.

Results

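Transcripts of the nuclear genes for the mitochondrial respiratory chain and ATP synthase were followed in mouse bone marrow stromal cells after total body irradiation. Genes were taken by their symbols in the platform annotation. No measured value entered the rule, but it was chosen with earlier results of these data known. The rule took symbols starting with Nduf, Uqcr, Cox4 to Cox8 or Atp5, together with Sdha to Sdhd, and left out the assembly factors Ndufaf. This gave 78 of the 16390 genes named on the array. Of these, 75 code for subunits, 33 of complex I, 4 of complex II, 7 of complex III, 16 of complex IV and 15 of complex V. The other 3 carry names of the same form and are described apart: Emc8 (Cox4nb on the platform), a subunit of the endoplasmic reticulum membrane complex, Dmac2l (Atp5s), known as factor B, and Cox7a2l, a factor that joins complexes III and IV. Ndufa4, first assigned to complex I, was counted with complex IV, where its protein is now placed.

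The irradiated groups were C57BL/6 marrow stromal cells taken 1 or 3 days after 9.5 Gy, and the comparison group was unirradiated C57BL/6 marrow stromal cells. Each time point had 1 two-channel array, with irradiated RNA in Cy3 and unirradiated RNA in Cy5, so the values carry no error between replicates and no test was possible. The dyes were not exchanged on either array, so effects of dye and of irradiation on a ratio cannot be told apart. The series mentions 6 mice without saying how they were pooled or divided, and the age of the mice and the way stromal cells were separated are not given in the sources used here. Of 10 stromal markers, 9 had a ratio on each array (Kitl had none), but a ratio shows relative and not absolute levels.

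Oxidative phosphorylation passes electrons from NADH (complex I) and succinate (complex II) through ubiquinone, complex III and cytochrome c to oxygen at complex IV. Complexes I, III and IV pump protons, and complex V, the ATP synthase, uses their return to make ATP. Most subunits are encoded in the nucleus and must be made in balance with a few from mitochondrial DNA. The genes are expressed in nearly all cells, and they are commonly described as sharing promoter elements for the factors NRF1 and NRF2 (GABP, of the ETS family). Stromal progenitors of marrow are usually described as relying largely on glycolysis, and maturing red cells as rich in mitochondria until they clear them.

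Values are log2 ratios with the median over all named genes of an array set to 0, so they say how a transcript stood relative to the typical gene. The labels do not name the numerator. A positive ratio was taken to mean more transcript in the irradiated RNA, because genes known to be induced by p53 were positive on both arrays. Among these, Cdkn1a stood at 2.23 at day 1 and 1.90 at day 3, Ccng1 at 3.15 and 1.94, and Mdm2 at 2.26 and 1.06. This direction is likely and not established, and every "higher" and "lower" would be exchanged if it were wrong. The spread between different probes of the same gene was 0.76 (pooled SD over 85 genes) at day 1 and 0.58 (116 genes) at day 3. The values of 65 of 74 oxidative phosphorylation genes at day 1, and 50 of 74 at day 3, were smaller than that spread. Ndufs5 alone had more than 1 probe, with ratios of -0.26 and -0.10 at day 1 and of -0.28 and 0.02 at day 3.

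A ratio was given on both arrays for 74 of the 78 genes (94.9%), against 9800 of all 16390 genes (59.8%). The 4 genes with no ratio on either array were Ndufc1, Uqcrq, and the isoforms Cox6a2, of heart and skeletal muscle, and Cox8c, of testis. Such a high share was also found for cytosolic (94.5%) and mitochondrial (93.5%) ribosomal protein genes and glycolysis genes (91.3%).

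Relative to the typical gene, the oxidative phosphorylation genes were slightly lower at day 1 and lower with few exceptions at day 3, whereas relative to cytosolic ribosomal protein genes they were slightly higher on both arrays. Their median log2 ratio was -0.22 at day 1 and -0.42 at day 3, which is 1.34-fold lower at the later time, and it turned to 0.29 and 0.14 when the median of ribosomal protein genes was set to 0. At day 1, 52 of 74 lay below the gene median and at day 3, 67 of 74. With the peak of the density over all genes at 0, the numbers were 38 and 68, and with ribosomal protein genes at 0 they were 17 and 26. A change of centre moves all genes alike. With ribosomal protein genes at 0 the typical gene lies at 0.51 at day 1 and 0.56 at day 3, still above the oxidative phosphorylation median. The shares of all genes below these other zeros are not given here. In these bulk samples, fewer cells rich in mitochondria and less of these transcripts per cell cannot be told apart.

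Differences of single genes were small. At day 1, 5 of 74 genes (6.76%) were at least 2-fold lower, against 11.1% of all genes, and none was at least 2-fold higher, against 19.6% of all genes. At day 3, 2 genes (2.70%) were at least 2-fold lower, against 6.85% of all genes, and again none was 2-fold higher, against 7.35%. At 1.5-fold the day 1 counts were 15 lower (20.3%, against 24.3% of all genes) and 2 higher (2.70%, against 29.4%). The day 3 counts at 1.5-fold were 22 lower (29.7%, against 17.5% of all genes) and none higher (against 17.9%). The oxidative phosphorylation genes also lay closer together than genes at large. The interquartile range of their ratios at day 1 was 0.60, that of all genes 1.32, and at day 3 it was 0.34, that of all genes 0.83. This is not particular to them. The range was 0.35 and 0.36 for cytosolic ribosomal protein genes and 0.50 and 0.40 for mitochondrial ribosomal protein genes, narrower than theirs at day 1.

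**Figure D1:**
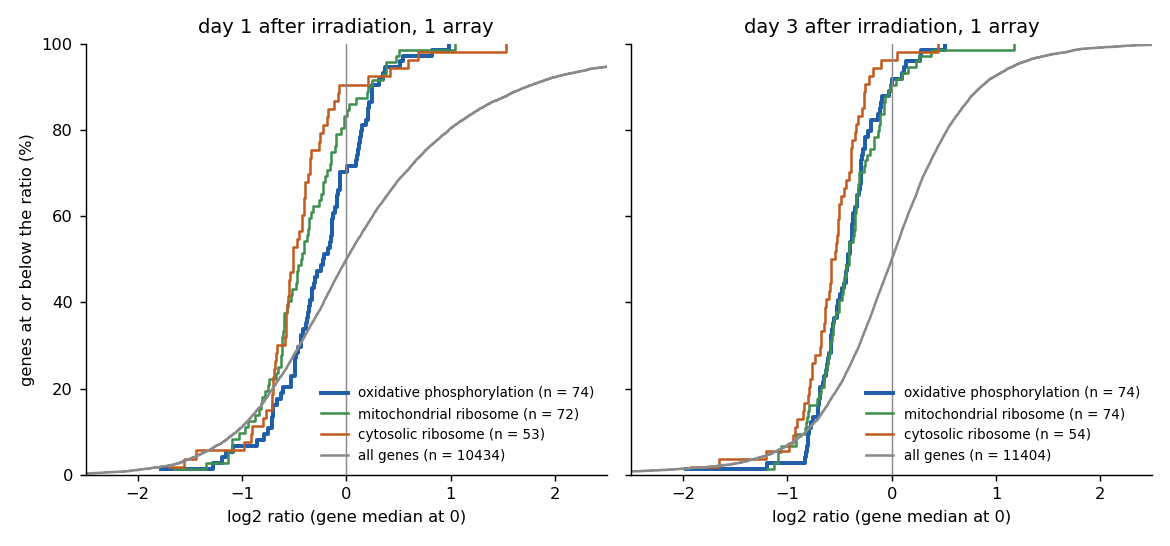
Share of genes (vertical axis, percent) at or below a given log2 ratio (horizontal axis, gene median at 0) on the day 1 and day 3 arrays, for oxidative phosphorylation genes, mitochondrial ribosomal proteins, cytosolic ribosomal proteins and all genes. The oxidative phosphorylation curve is steeper than that of all genes and crosses its own middle at -0.22 at day 1 and -0.42 at day 3, to the right of the cytosolic ribosomal proteins, so that its side of 0 turns when those are set to 0.

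The most extreme genes were the same on both arrays. Atp5o, which codes for the oligomycin sensitivity protein that ties the ATP synthase head to its peripheral stalk, was lowest, at -1.78 at day 1 and -1.97 at day 3, or 3.43-fold and 3.92-fold lower. Only 1.82% and 1.45% of all genes had a smaller ratio than Atp5o. Ndufb2, an accessory subunit of the complex I membrane arm, was highest, at 0.98 and 0.51. Both genes rest on a single probe each. Both arrays used unirradiated RNA, possibly of the same extract, and the same dyes, so likeness between them is not independent repetition.

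Their promoters, and those of 4 genes of complexes II to V that hold letters of an NRF1 or ETS element, are shown to let sequence and ratio be read together. Each line gives the 200 bases before the transcription start (RefSeq, GRCm38.p6, read 5′ to 3′ on the gene's strand), and capitals mark CGCANGCG (NRF1) or CCGGAAG (ETS, which reads CTTCCGG on the other strand). Sdhd lies at chr9:50603850-50604049, Uqcr11 at chr10:80406822-80407021, Cox6a1 at chr5:115348959-115349158, Atp5h at chr11:115419920-115420119 and Atp5o at chr16:91931631-91931830, all on the minus strand, and Ndufb2 at chr6:39592365-39592564 on the plus strand.
Sdhd: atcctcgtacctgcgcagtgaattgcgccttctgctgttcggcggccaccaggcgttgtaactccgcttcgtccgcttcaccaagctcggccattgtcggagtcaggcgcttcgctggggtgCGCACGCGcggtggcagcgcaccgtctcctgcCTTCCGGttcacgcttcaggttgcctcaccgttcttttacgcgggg
Uqcr11: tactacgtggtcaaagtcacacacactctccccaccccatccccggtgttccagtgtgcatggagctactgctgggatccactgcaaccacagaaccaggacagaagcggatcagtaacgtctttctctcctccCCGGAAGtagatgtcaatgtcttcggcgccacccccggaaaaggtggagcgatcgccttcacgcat
Cox6a1: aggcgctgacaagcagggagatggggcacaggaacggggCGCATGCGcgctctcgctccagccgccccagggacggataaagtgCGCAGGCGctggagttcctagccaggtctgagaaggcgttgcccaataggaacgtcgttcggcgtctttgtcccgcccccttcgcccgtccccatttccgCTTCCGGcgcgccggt
Atp5h: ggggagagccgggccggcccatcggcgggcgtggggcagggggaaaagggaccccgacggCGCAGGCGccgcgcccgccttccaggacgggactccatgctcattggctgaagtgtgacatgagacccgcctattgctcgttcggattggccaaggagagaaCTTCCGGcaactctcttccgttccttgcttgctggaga
Atp5o: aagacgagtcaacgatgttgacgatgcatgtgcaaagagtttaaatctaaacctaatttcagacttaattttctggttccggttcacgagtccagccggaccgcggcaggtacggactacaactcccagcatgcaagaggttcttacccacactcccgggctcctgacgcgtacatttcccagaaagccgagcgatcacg
Ndufb2: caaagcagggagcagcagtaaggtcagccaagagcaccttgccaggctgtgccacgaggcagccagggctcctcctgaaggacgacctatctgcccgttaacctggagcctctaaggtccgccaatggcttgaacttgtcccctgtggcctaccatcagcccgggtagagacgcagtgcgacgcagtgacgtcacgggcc

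Cox6a1 holds NRF1 letters starting 161 and 116 bases before the start and ETS letters at 16 bases, Atp5h at 140 and 38 bases, and Sdhd at 78 and 46 bases. Uqcr11 holds ETS letters at 66 bases. Neither set of letters occurs in the printed stretch of Atp5o or Ndufb2, but Atp5o and Uqcr11 hold NRF1 letters elsewhere in the longer stretch searched. RefSeq gave promoters for 64 of the 78 genes, each searched from 250 bases before to 50 after the start on both strands. NRF1 letters were found in 24 of the 64 (37.5%), against 9.22% of 27025 genes with a promoter and 18.6% of the 7887 with a ratio on both arrays. ETS letters were found in 15 (23.4%, against 9.93% and 19.2%), and letters of a YY1 element, GCCATNTT, in 17 (26.6%, against 6.96% and 9.76%). An Sp1 box, GGGCGG, was found in 26 (40.6%, against 38.2% and 67.1%), and a cAMP response element, TGACGTCA, in 4 (6.25%, against 2.03% and 3.44%).

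At day 3 the median ratio of oxidative phosphorylation genes with NRF1 letters was -0.51 (24 genes) and that of genes without was -0.42 (39 genes). For YY1 letters the medians were -0.58 (16 genes with) and -0.40 (47 without), and for ETS letters -0.52 (15 with) and -0.42 (48 without). The order was the other way for Sp1 letters, at -0.37 (26 with) and -0.48 (37 without), and for the cAMP response element, at -0.28 (4 with) and -0.44 (59 without). At day 1 it was also the other way for ETS letters, at -0.13 with and -0.27 without. The day 1 medians with and without Sp1 letters were -0.03 and -0.33, the widest of these differences. They were -0.34 and -0.14 for YY1 letters, -0.25 and -0.16 for NRF1 letters, and 0.02 and -0.22 for the cAMP response element. Among all genes measured on both arrays, medians at day 3 were -0.07 with and -0.02 without NRF1 letters, and -0.13 with and -0.01 without ETS letters. Each of these differences among the oxidative phosphorylation genes is smaller than the interquartile range of these genes on the same array. A match of letters does not show that a factor binds.

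The complexes were then set side by side. At day 1, the median ratios were -0.34 for complex I (32 genes), -0.08 for complex II (4), -0.12 for complex III (6), -0.14 for complex IV (14) and -0.33 for complex V (15). At day 3 they were -0.37, -0.20, -0.30, -0.50 and -0.63 in the same order of complexes. Setting ribosomal protein genes to 0 made all of these medians positive except that of complex V at day 3 (-0.06), and setting the density peak to 0 made those of complexes II, III and IV positive at day 1. The order of the complexes on an array and the distances between them do not change with such a shift. Complex V lay 0.42 below complex II and 0.25 below complex I at day 3, whereas at day 1 complexes V and I differed by 0.02. It lay only 0.13 below complex IV at day 3, less than the SD over genes in complex IV (0.23). At day 3 the SD over genes was 0.44 in complex V (0.27 without Atp5o), 0.35 in complex II and 0.30 in complex I, so the distance of complex V from complex II was larger than the SD of complex II and close to that of complex V, which rests largely on Atp5o.

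**Figure D2:**
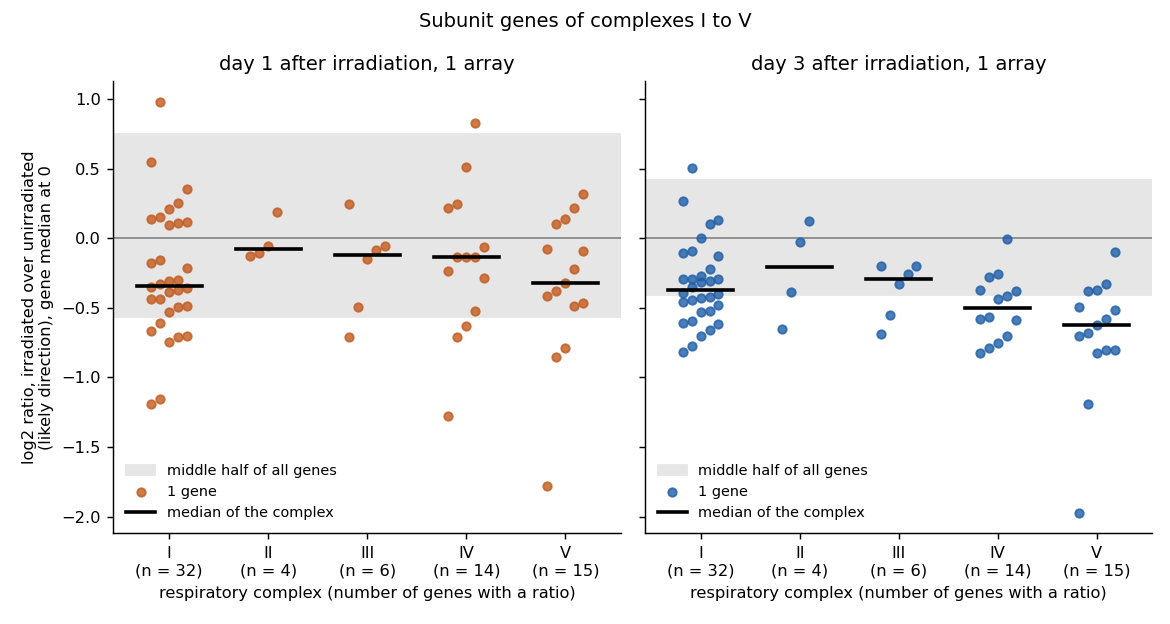
Log2 ratio of each subunit gene (vertical axis, gene median at 0) by respiratory complex at day 1 and day 3, 1 array each; points are genes, black lines are medians and the grey band is the interquartile range of all genes on the array. At day 3 all genes of complexes III, IV and V lie below 0 and the medians step down from -0.20 in complex II to -0.63 in complex V; with ribosomal protein genes at 0 only the median of complex V would stay below 0.

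At day 3, all 6 genes of complex III, all 14 of complex IV and all 15 of complex V lay below the gene median, with 27 of 32 in complex I and 3 of 4 in complex II. The genes at least 1.5-fold lower at day 3 were 8 of 15 in complex V (53.3%), 5 of 14 in complex IV (35.7%), 7 of 32 in complex I (21.9%), 1 of 4 in complex II (Sdhd) and 1 of 6 in complex III (Uqcr11). Over all genes the share was 17.5%, near that of complex I. The genes at least 1.5-fold lower at day 1 were 3 of 15 in complex V, 3 of 14 in complex IV, 7 of 32 in complex I, none of 4 in complex II and 1 of 6 in complex III. At day 1 each of these shares was below that over all genes, 24.3%. The genes 1.5-fold lower at day 3 but not at day 1 were 5 in complex V, 5 in complex I, 2 in complex IV and 1 in complex II. In complex I only 2 genes (Ndufb9 and Ndufs7) were 1.5-fold lower on both arrays, and 5 were so at day 1 but not at day 3.

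**Figure D3:**
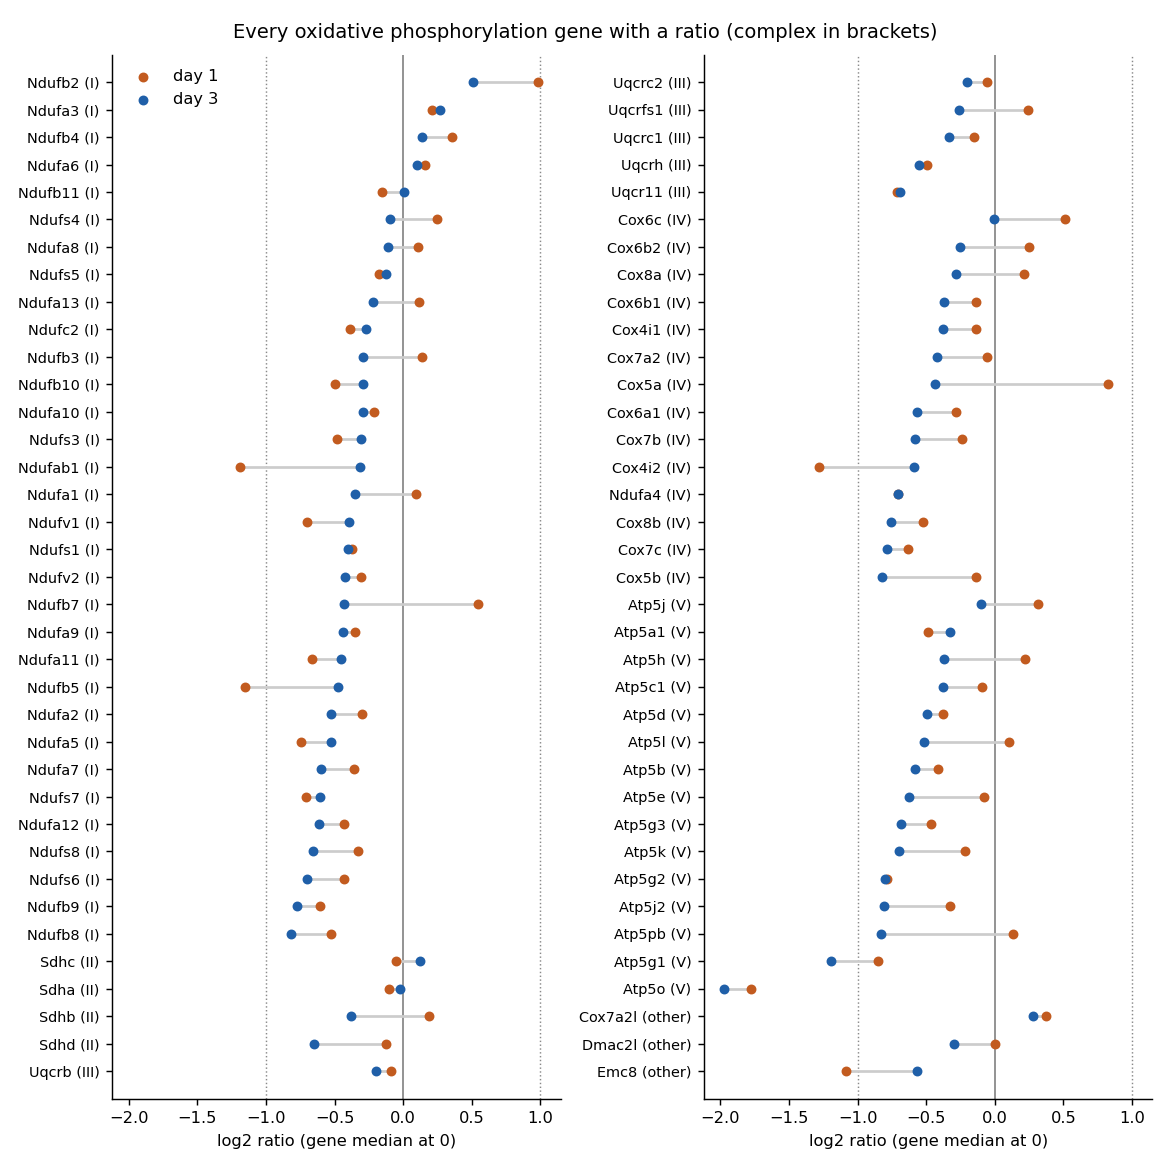
Log2 ratios (horizontal axis, gene median at 0) of all 74 genes with a ratio, at day 1 and day 3, joined by a line per gene and ordered by complex; dotted lines mark 2-fold. Most day 3 points lie left of 0, with Atp5o far to the left at -1.97. A lower ratio at day 3 than at day 1 is seen in 55 of 74 genes (74.3%), against 52.1% of all genes. With ribosomal protein genes at 0, 48 of the day 3 points would lie right of 0, and the typical gene would lie at 0.56.

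Complex I is the entry point for electrons from NADH and the largest of the complexes. Its 6 measured core subunits, which carry the flavin and most of the iron-sulfur clusters, had a median ratio of -0.43 at day 1 and -0.41 at day 3. All 6 lay below the gene median on both arrays, although that reading, as for the complexes, depends on the centring. Ndufv1, which binds NADH and the flavin, stood at -0.71 at day 1 and -0.40 at day 3. Ndufs7, whose cluster hands electrons to ubiquinone, stood at -0.71 and -0.61, and Ndufs8, which carries a pair of clusters, at -0.33 and -0.66. Ndufs1 (-0.37 and -0.40), Ndufv2 (-0.31 and -0.42) and Ndufs3 (-0.49 and -0.31) were the other 3.

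The 26 measured accessory subunits of complex I, which stabilise the enzyme without carrying electrons, spread more widely. Their median was -0.26 at day 1 and -0.31 at day 3, and their SD over genes was 0.50 and 0.32, against 0.18 and 0.14 for the core subunits. Ndufab1, the acyl carrier protein of mitochondria and also part of complex I, stood at -1.19 at day 1 and -0.32 at day 3. Ndufb5, of the membrane arm, stood at -1.15 and -0.48. These 2 genes were at least 2-fold lower at day 1 and within 1.5-fold at day 3.

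Ndufb7 went the other way, at 0.54 at day 1 and -0.43 at day 3. The lowest accessory subunits at day 3 were Ndufb8 (-0.82), Ndufb9 (-0.77) and Ndufs6 (-0.70), with day 1 values of -0.53, -0.61 and -0.43. Ndufa5 was at -0.75 and -0.53 and Ndufa11, of the membrane arm, at -0.67 and -0.46. The 4 genes of complex I above the gene median on both arrays were Ndufb2, Ndufb4 (0.36 and 0.13), Ndufa3 (0.21 and 0.27) and Ndufa6 (0.16 and 0.10). Ndufs4, an accessory subunit whose loss causes a Leigh-like disease in mice, stood at 0.25 and -0.09.

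Complex II, which also works in the tricarboxylic acid cycle and has no mitochondrially encoded subunit, was the complex closest to the typical gene. Sdha, the flavoprotein that oxidises succinate, stood at -0.11 at day 1 and -0.03 at day 3. Its partner Sdhb, the iron-sulfur subunit, stood at 0.19 and -0.38. Of the membrane anchors, Sdhc was at -0.06 and 0.12 and Sdhd at -0.13 and -0.65. With 4 genes that went different ways, its median is a weak summary.

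Complex III passes electrons from ubiquinol to cytochrome c. Its Rieske iron-sulfur protein, Uqcrfs1, stood at 0.24 at day 1 and -0.26 at day 3. The core proteins Uqcrc1 (-0.15 and -0.33) and Uqcrc2 (-0.06 and -0.20) lay near the gene median. The small subunits Uqcr11 (Uqcr on the platform; -0.71 and -0.69) and Uqcrh, the hinge protein that binds cytochrome c1 (-0.49 and -0.55), were lower on both arrays, and Uqcrb was at -0.09 and -0.20. Cyc1, the cytochrome c1 of the same complex, which the naming rule does not take, was at -0.74 and -0.77.

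Complex IV reduces oxygen. Its catalytic subunits are mitochondrially encoded, and no probe was named for them here, so only the nuclear subunits around them are described. Cox5a, which contacts the regulatory Cox4 subunit, had the largest difference between times of all 74 genes, at 0.82 at day 1 and -0.44 at day 3. Cox5b, the zinc-binding subunit, stood at -0.14 and -0.83, the lowest of complex IV at day 3. Cox6c was at 0.51 and -0.01. Of the small membrane subunits, Cox7c was at -0.63 and -0.79, Cox7b at -0.24 and -0.58 and Cox7a2 at -0.06 and -0.42. Ndufa4 held its value, at -0.71 and -0.70.

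Some complex IV subunits have isoforms of restricted tissues. Cox4i1, the general form, stood at -0.14 at day 1 and -0.38 at day 3, and Cox4i2, the form of lung and of low oxygen, at -1.28 and -0.59. Cox8a, the general form, was at 0.21 and -0.28, and Cox8b, the form of heart and skeletal muscle in mice, at -0.53 and -0.75. Cox6b1 was at -0.14 and -0.37, and Cox6b2, a form of testis, at 0.25 and -0.26. Cox6a1 was at -0.28 and -0.57. In the Cox4 and Cox8 pairs the restricted form thus had the lower ratio on both arrays, and in the Cox6b pair it had the higher ratio on both. Without intensities it cannot be said how strongly the restricted forms were expressed.

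In complex V, the catalytic F1 part and the membrane part had like medians at day 1 and different ones at day 3. The 5 F1 genes had a median of -0.38 at day 1 and -0.50 at day 3. The 6 genes of the membrane part had a median of -0.39 at day 1 and -0.75 at day 3, 0.26 below F1 at the later time. Atp5b, the catalytic beta subunit, was at -0.41 and -0.58, and Atp5a1, the alpha subunit, at -0.49 and -0.33. The central stalk genes were Atp5c1 (-0.09 and -0.38), Atp5d (-0.38 and -0.50) and Atp5e (-0.08 and -0.63).

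Atp5g1, Atp5g2 and Atp5g3 code for the same mature c subunit, the rotating proton ring, and differ in their import sequences. Atp5g1 stood at -0.85 at day 1 and -1.19 at day 3, Atp5g2 at -0.79 and -0.80, and Atp5g3 at -0.46 and -0.68. All 3 were at least 1.5-fold lower at day 3, and Atp5g1, the only gene besides Atp5o at least 2-fold lower at that time, was the lowest of the 3 on both arrays. Their coding sequences are alike, and whether the probes tell them apart was not tested. The small membrane subunits Atp5j2 (-0.33 and -0.81), Atp5k (-0.22 and -0.70) and Atp5l (0.11 and -0.52) were each lower at day 3 than at day 1 by 0.48 to 0.62.

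In the peripheral stalk, which holds the F1 head still, Atp5o stood far below its partners. Atp5pb, subunit b (Atp5f1 on the platform), was at 0.13 at day 1 and -0.83 at day 3. Atp5h, subunit d, was at 0.22 and -0.37, and Atp5j, coupling factor 6, at 0.32 and -0.10. Without Atp5o the complex V median was -0.27 at day 1 and -0.60 at day 3, so complex V kept the lowest median at day 3. Of the 3 genes that are no subunits, Emc8 was at -1.09 and -0.57, Dmac2l at 0.00 and -0.30, and Cox7a2l at 0.37 and 0.28.

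Between the times, 55 of 74 genes (74.3%) had a lower ratio at day 3 than at day 1, against 52.1% of the 9800 genes measured on both arrays. The median difference (day 3 minus day 1) of the oxidative phosphorylation genes was -0.22, against -0.04 over those 9800 genes. The difference stayed negative under each centring tried, from -0.17 with ribosomal protein genes at 0 to -0.40 with the density peak at 0. Only Cox5a (-1.26) was at least 2-fold lower at day 3 than at day 1, or 1.35% of these genes against 16.8% of all genes, and none was 2-fold higher (against 12.1%). At 1.5-fold, 6 were lower (8.11%, against 26.9% of all genes) and 3 higher (4.05%, against 23.8%), namely Ndufab1 (0.88), Cox4i2 (0.69) and Ndufb5 (0.68).

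By complex, the median difference was -0.34 in complex V, -0.31 in complex IV, -0.22 in complex II, -0.13 in complex III and -0.10 in complex I. In complex V, 14 of 15 genes had the lower ratio at day 3 (Atp5a1 was the exception), and in complex IV 12 of 14 (Cox4i2 and Ndufa4 were the exceptions). In complex I it was 20 of 32 (62.5%), nearer to the 52.1% over all genes. The 6 core subunits of complex I had a median difference of 0.04.

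**Figure D4:**
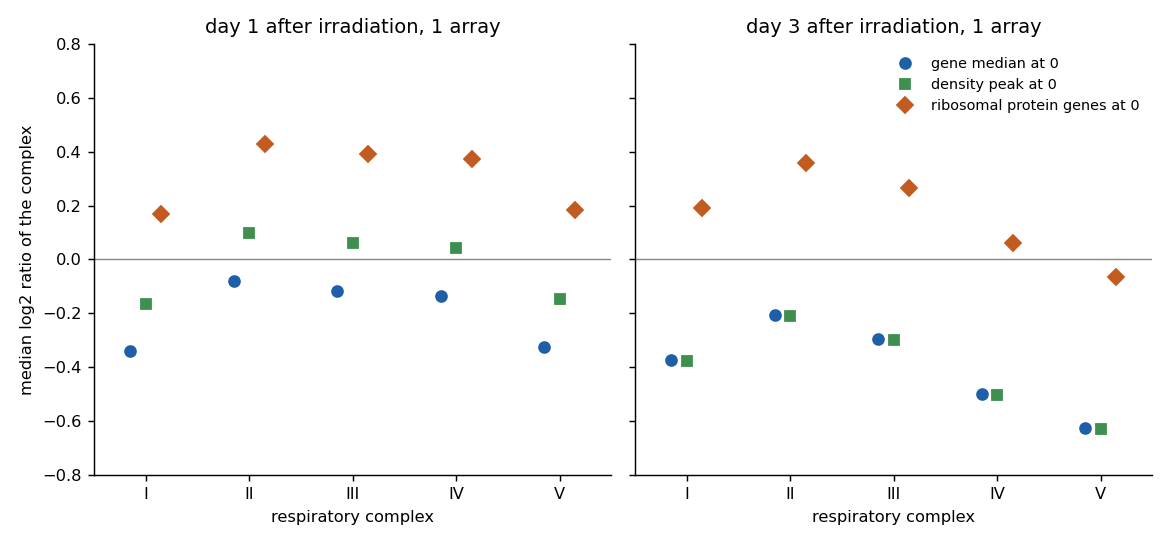
Median log2 ratio of each complex (vertical axis) at day 1 and day 3 with the gene median, the density peak or the median of ribosomal protein genes set to 0. The choice shifts all complexes alike, by 0.18 at day 1 for the density peak and by 0.51 and 0.56 for ribosomal protein genes, and turns the sign of most medians while leaving their order.

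Other genes of mitochondria and energy supply were set beside these, from lists made by gene function. Assembly factors of the complexes had medians of -0.22 at day 1 (31 genes) and -0.31 at day 3 (33 genes). At day 1, 2 were at least 2-fold lower (6.45%, against 11.1% of all genes) and 3 higher (9.68%, against 19.6%). At day 3, 3 were at least 2-fold lower (9.09%, against 6.85% of all genes) and none higher (against 7.35%). Lrpprc, which stabilises mitochondrial messenger RNA, was their lowest at -1.57 and -1.35, and Taco1, a translation activator for a complex IV subunit, the highest at day 1 (2.24, with 0.02 at day 3). Tmem126b was highest at day 3 (0.57). Tricarboxylic acid cycle and pyruvate dehydrogenase genes had medians of -0.20 and -0.25 over 17 genes. None of them was 2-fold out on either array, against the shares of all genes given above. In that list Idh3a was lowest at day 1 (-0.97) and Dlst at day 3 (-0.72), while Mdh2 was highest at day 1 (0.78) and Sucla2 at day 3 (0.81).

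Mitochondrial ribosomal proteins had medians of -0.43 at day 1 (72 genes) and -0.41 at day 3 (74 genes). The oxidative phosphorylation median was 0.21 above theirs at day 1 and -0.42 against -0.41 at day 3. The range at day 3 ran from Mrps28 (-1.19) to Mrps6 (1.17), and at day 1 from Mrps25 (-1.65) to Mrpl57 (1.04). Cytosolic ribosomal proteins had medians of -0.51 (53 genes) and -0.56 (54 genes), with Rpl38 lowest on both arrays at -1.70 and -1.93, Rps12 highest at day 1 (1.53) and Rpl10 at day 3 (0.45). Glycolysis genes had a median of 0.68 at day 1 (21 genes), 0.89 above oxidative phosphorylation, and of -0.11 at day 3 (22 genes), 0.32 above it. The lactate exporter Slc16a3 was the highest glycolysis gene at day 1 (4.54) and Ldhb at day 3 (1.07), and Pfkm was the lowest on both (-2.46 and -0.84).

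Among electron and nucleotide carriers, which had medians of -0.34 at day 1 (16 genes) and -0.15 at day 3 (17 genes), the ends were Coq7 (-1.05) and Cycs (0.90) at day 1 and Atpif1 (-1.21) and Coq2 (0.17) at day 3. Cycs, cytochrome c, was at 0.14 at day 3. Atpif1, the inhibitor of ATP synthase, was at -0.98 at day 1. Of the adenine nucleotide carriers, Slc25a4 was at -0.86 and 0.10 and Slc25a5 at 0.24 and -0.48, so their order was exchanged between the times.

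Regulators of mitochondrial genes had medians of -0.06 at day 1 (14 genes) and 0.03 at day 3 (15 genes). Nrf1, the factor that names the element above, was at 0.83 and 0.03, and Tfam, which packages mitochondrial DNA, at -0.19 and -0.30. Esrra, a nuclear receptor, was highest (1.74 and 0.85) and Tfb1m, a methyltransferase of mitochondrial ribosomal RNA, lowest (-1.84 and -1.31). Ppargc1a, the coactivator that raises mitochondrial gene expression, had no ratio on either array.

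**Figure D5:**
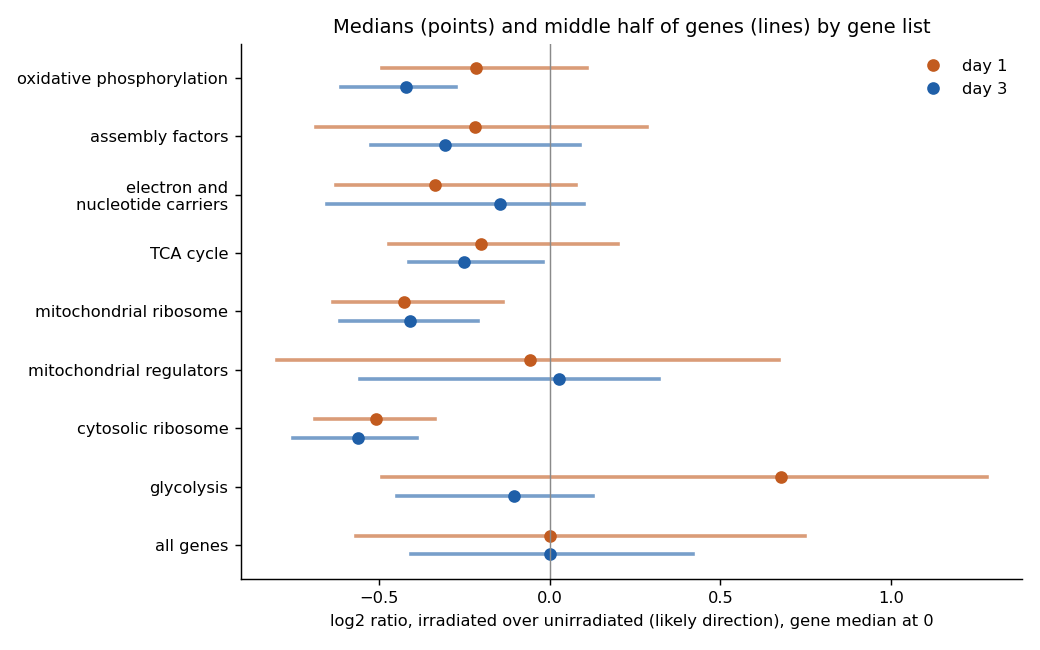
Medians (points) and interquartile ranges over genes (lines) of log2 ratios (horizontal axis, gene median at 0) at day 1 and day 3 for oxidative phosphorylation and 7 other gene lists above all genes. Oxidative phosphorylation lies at -0.22 and -0.42, above the cytosolic ribosomal proteins on both arrays, so its side of 0 turns when those are set to 0; glycolysis is the list farthest to the right at day 1, at 0.68.

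Markers of blood cells also differed between the channels. At day 1, all 8 granulocyte markers with a ratio were positive, from 5.30 to 7.97, as were all 6 pan-leukocyte markers (5.13 to 8.17). At day 3, 5 granulocyte markers had a ratio, from -3.19 to -1.36, and 4 pan-leukocyte markers, from -1.40 to 0.93. Erythroid markers had medians of -4.08 at day 1 and -4.21 at day 3 (6 of 8 listed on each array, all below 0). The 6 proliferation markers ranged from -2.02 to 1.32 at day 1 and from -4.70 to -3.24 at day 3. The part of these cell types in the oxidative phosphorylation ratios was not tested. Stromal markers had medians of -0.50 and 0.74 (9 genes each) but did not move together. They ranged from -1.22 to 1.24 at day 1 (7 below 0) and from -1.50 (Col1a1) to 1.79 (Eng) at day 3 (3 below 0). Endothelial markers had medians of 0.54 and 1.77 (4 genes). Adipocyte and brown fat or muscle markers ranged from -1.36 (Adipoq) to 1.46 (Ckm) at day 1 (4 genes). At day 3 these ranged from -0.55 (Ucp1) to 3.27 (Plin1) over 6 genes.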

How the data were processed

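Per the labels, RNA was amplified as amino allyl RNA, with Cy5 on unirradiated and Cy3 on irradiated RNA. The deposited values are log ratios per probe, read as log2. The log base, the scanner and how background, normalisation and empty entries were handled are not given in the sources used here, and intensities were not used. The authors' values had medians of 0.00035 at day 1 and -0.00013 at day 3. Of 23473 probes, 9515 and 8056 had no ratio. The number of arrays limits the precision.

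Platform symbols of 16631 probes were updated through RefSeq names (GRCm38.p6): 12622 were current, 3947 matched by an older name and 62 were kept. Probes of a gene were averaged and the gene median was subtracted (-0.01 and 0.02). Genes were counted past 2-fold (log2 ratio 1), with 1.5-fold as an alternative. With 1 array per time no test was run. Members, lists and rules were chosen with earlier results of these data known. Every gene taken by name may be named. Named in full are those at least 2-fold out, the ends of each complex, catalytic subunits and isoform pairs. In other lists, the ends and a few regulators and carriers are named. The promoters printed were chosen after values were seen. The computation of median centring was checked on resampled day 3 values with planted shifts, which does not show which centre is right. Python 3.11.15, pandas 2.3.3 and scipy 1.17.1 were used.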

Additional observations from a re-analysis of the deposited data

How the results depend on the processing

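No paired analysis was possible because each time point had 1 array, and for the same reason no array could be left out. Medians were counted as moved when they shifted by at least 0.1 (log2). As deposited, with the median of probes, with platform symbols, without the 3 genes that are no subunits, and with Ndufa4 in complex I, no median moved by that much and no sign turned; the 1 count that differed was 4 genes at least 2-fold lower at day 1 in place of 5, without Emc8. With ribosomal protein genes at 0, the day 1 medians turned to 0.29 for all genes of the group and to 0.17, 0.43, 0.39, 0.37 and 0.18 for complexes I to V. The day 3 medians turned to 0.142 for the whole group and to 0.189, 0.358, 0.266 and 0.0609 for complexes I to IV, while complex V moved to -0.0642. Counts past 2-fold became 4 higher and 1 lower at day 1, and 1 higher and 1 lower at day 3. All genes move with the centre, and shares of all genes past 2-fold were taken only with the gene median at 0. Counts under the other centres therefore have no share of all genes beside them. With the density peak at 0, day 1 medians turned to 0.0968, 0.0604 and 0.0410 for complexes II, III and IV and moved to -0.0381 for the whole group, -0.16 for complex I and -0.15 for complex V, with 2 genes higher and 3 lower. The medians of day 3 minus day 1 moved to -0.40 for the whole group and to -0.28, -0.40, -0.31, -0.49 and -0.52 for complexes I to V, with 3 genes lower. Over genes on both arrays, 1 gene was higher at day 1 and 2 were lower at day 3 than at day 1. At 1.5-fold, 2 genes were higher and 15 lower at day 1, 22 lower at day 3, and 3 higher and 6 lower for the difference. Taking 5 more genes by updated symbols (Atp5mpl, Ndufv3, Uqcr10, Cox7b2 and Ndufa4l2), an alternative added after seeing the data, put 1 gene at least 2-fold higher at day 3 than at day 1. These shifts follow from the centring; which centre is right was not tested.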
